A study of Mus musculus with 18 samples.

Results

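The genes described here are *Dppa2*, *Dppa3*, *Dppa4*, *Dppa5a*, *L1td1*, *Eras*, *Tcl1* and *Fbxo15*, a group of transcripts used as markers of undifferentiated mouse ESCs. They were found by symbol in the probe gene table of the array. All 8 had a probe set, 11 of the 35512 probe sets on the array, against 19938 genes that had a probe set with a single symbol. Signals were measured with GeneChip Mouse Gene 1.0 ST arrays in 3 ESC lines of strain J1 (129Sv/Jae). The wt line was compared with *Dnmt1*-/- cells, which lack the enzyme that copies DNA methylation onto newly made strands. The third line, TKO, carries null alleles of *Dnmt1* and of the *de novo* methyltransferase genes *Dnmt3a* and *Dnmt3b*. Each line was lysed as undifferentiated ESCs (day 0) and as embryoid bodies (EBs) at day 4 and day 16. EBs are cell aggregates, made here in hanging drops, in which ESCs turn into a mixture of embryonic and extraembryonic cell types. Each of the 9 genotype by day groups had 2 arrays, called biological replicates in the labels, 18 arrays in all. The labels name no second line of any genotype, so genotype and cell line cannot be told apart. An EB sample holds many cell types, so fewer cells that express a gene and less RNA per cell cannot be told apart either.

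The *Dppa* genes are named for developmental pluripotency association, that is for expression in pluripotent cells of the early embryo and in germ cells. Dppa2 and Dppa4 are nuclear proteins with a SAP domain that act as a pair at CpG-rich promoters. Dppa3, also known as Stella or PGC7, is abundant in oocytes, preimplantation embryos and primordial germ cells, where it limits DNA methylation by restraining Uhrf1. Dppa5a is a small protein with a KH-like RNA-binding domain. L1td1 is an RNA-binding protein that descends from the first open reading frame of a LINE-1 element. Fbxo15 is an F-box protein, the type of subunit that recruits substrates to SCF ubiquitin ligases, and its locus was an early reporter of reprogramming. Eras is a constitutively active relative of Ras that stimulates PI3K in ESCs, and Tcl1 is a coactivator of Akt, which acts downstream of PI3K. *Dppa3* lies beside *Gdf3* and *Nanog* on chromosome 6, and *Dppa2*, *Dppa4* and *Morc1* lie side by side on chromosome 16. *L1td1* lies on chromosome 4, *Dppa5a* on chromosome 9, *Tcl1* on chromosome 12 and *Eras* on chromosome X.

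The mutated genes were checked first. *Dnmt1* signals lay between 9.16 and 9.77 on the log2 scale in wt and between 8.40 and 8.86 on the mutant arrays. *Dnmt3a* signals were lower on both TKO arrays than on both wt arrays of each day, 7.43 and 7.65 against 8.87 and 9.45 in ESCs. *Dnmt3b* signals were also lower in TKO in ESCs (7.33 and 7.45 against 9.80 and 10.00) and at day 4, but at day 16 both TKO arrays (7.52 and 7.71) lay above both wt arrays (7.16 and 7.41). Whether the probes lie in the parts deleted is not given, so these signals do not settle the genotype. ESC markers were present at day 0. Summed over *Pou5f1*, *Sox2*, *Nanog*, *Klf4*, *Esrrb* and *Tfcp2l1*, linear signals were 7137 to 8072 in wt, 7282 to 9874 in *Dnmt1*-/- and 8688 to 9090 in TKO ESCs. The sum was 978 to 1178 in wt EBs at day 16, 2407 to 2738 in *Dnmt1*-/- EBs and 5779 to 5797 in TKO EBs. The *Dnmt1*-/- EBs at day 4 stood apart through their spread, with sums of 1151 and 3379. Fibroblast markers, which feeder cells would carry, summed to 403 to 567 over the ESC arrays of the 3 lines. At day 16 the summed markers of fibroblasts, cardiac muscle, extraembryonic endoderm and trophoblast were lower on both TKO arrays than on both wt arrays, while those of mesoderm and of neural cells overlapped. A sum follows its brightest genes. Within the trophoblast list *Ascl2* went against the sum, with a log2 difference of 1.33 ± 0.24 between TKO and wt (SE, limma adjusted p = 0.0027). Fibroblast markers summed to 11565 to 17089 in wt, 3040 to 3831 in *Dnmt1*-/- and 588 to 894 in TKO EBs, and cardiac muscle markers to 6323 to 6327, 3203 to 4832 and 726 to 1516. Extraembryonic endoderm markers summed to 16545 to 17545 in wt, 16939 to 21273 in *Dnmt1*-/- and 5690 to 8028 in TKO. The part of these cell type differences in the EB results below was not tested.

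Promoter sequence, as the 250 bases upstream of the RefSeq start on mouse assembly GRCm38.p6, was at hand for *L1td1*, *Eras* and *Tcl1*. These windows are shown because methylation is written on CpG dinucleotides. Whether CpG content bears on the signals was not tested. Each is given 5′ to 3′ on the strand of its gene, with CpG dinucleotides in capitals. The *L1td1* window is chr4:98726504-98726753 on the plus strand, the *Eras* window chrX:7928608-7928857 on the minus strand and the *Tcl1* window chr12:105222738-105222987 on the minus strand.
L1td1: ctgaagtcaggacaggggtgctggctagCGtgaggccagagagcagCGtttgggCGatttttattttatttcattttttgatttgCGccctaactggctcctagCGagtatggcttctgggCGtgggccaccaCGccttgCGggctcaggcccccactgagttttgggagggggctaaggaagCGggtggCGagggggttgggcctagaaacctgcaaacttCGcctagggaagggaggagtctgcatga
Eras: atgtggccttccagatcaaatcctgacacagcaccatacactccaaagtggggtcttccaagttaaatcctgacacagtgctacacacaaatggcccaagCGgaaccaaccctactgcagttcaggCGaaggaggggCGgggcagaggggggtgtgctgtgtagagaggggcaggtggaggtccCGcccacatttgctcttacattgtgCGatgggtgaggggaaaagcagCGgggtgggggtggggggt
Tcl1: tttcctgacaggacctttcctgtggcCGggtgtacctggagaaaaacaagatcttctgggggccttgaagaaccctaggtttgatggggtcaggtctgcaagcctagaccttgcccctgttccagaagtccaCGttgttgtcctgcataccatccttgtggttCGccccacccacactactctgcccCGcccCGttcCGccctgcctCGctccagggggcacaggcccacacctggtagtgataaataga
The *L1td1* window held 11 CpG dinucleotides, a number reached or exceeded in 35.6% of 32851 windows of this length. The *Tcl1* window held 7 and the *Eras* window 6, numbers reached by 46.3% and 50.4% of windows. GC content was 57.6% for *L1td1* and *Tcl1* and 58.0% for *Eras*, against a median of 52.4% over all windows. An octamer motif, ATTTGCAT on either strand, occurred in 1.60% of all windows, and a Sox motif, CATTGTT on either strand, in 3.29%. Neither string of letters was found in the 3 windows.

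A change was called when the fold change was at least 2 and the false discovery rate of its comparison was below 0.05 in a limma fit of all 18 arrays. Fold changes are differences of group means on the log2 scale and carry the standard error (SE) of that fit. In undifferentiated ESCs no gene of the 8 was called between genotypes. *Dnmt1*-/- differed from wt by -0.01 to 0.36, with 0 genes at an unadjusted limma p below 0.05, and 0.355% of all probe sets were called. TKO differed from wt by -0.17 to 1.01, with 1 gene at an unadjusted p below 0.05, and 0.304% of all probe sets were called. That gene was *Tcl1*, for which the wt ESC arrays read 8.37 and 8.16 and the TKO ESC arrays 9.47 and 9.07, a difference of 1.01 ± 0.38 (SE, adjusted p = 0.41). Both TKO arrays lay above both wt arrays. No gene was called between TKO and *Dnmt1*-/- ESCs, where 0 genes had an unadjusted p below 0.05 and 0.00563% of probe sets were called.

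**Figure D1:**
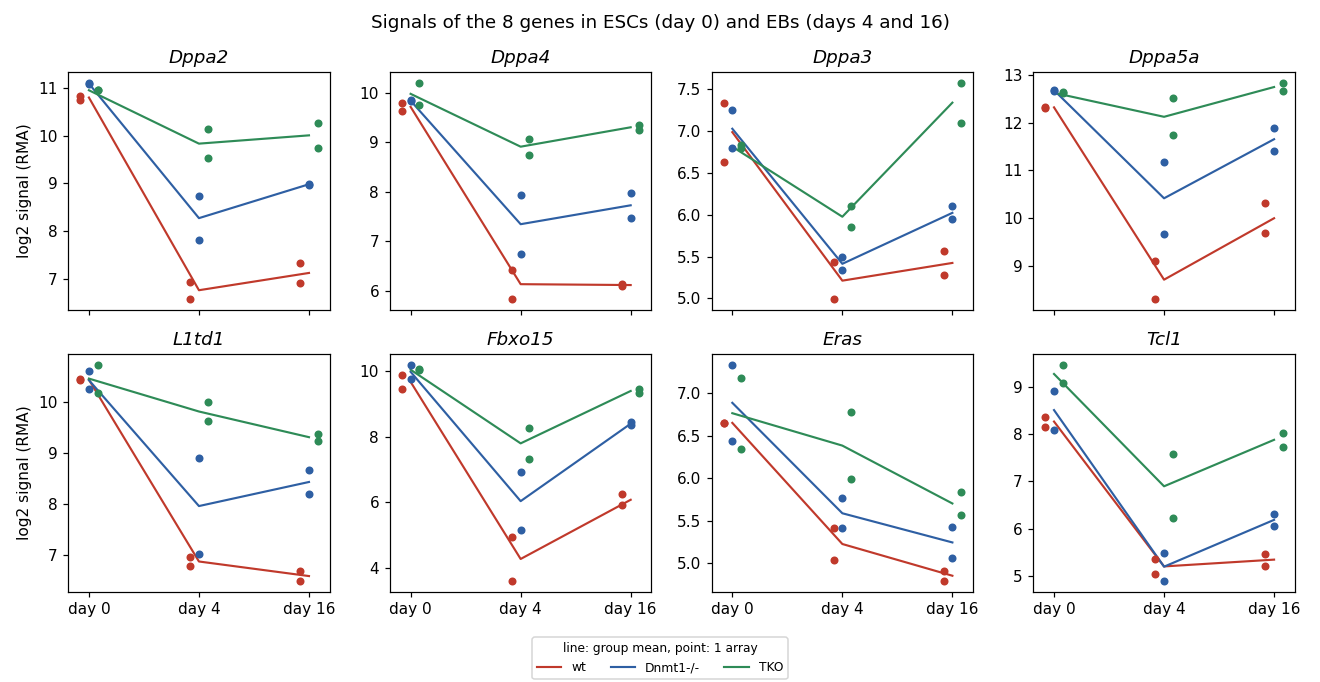
Signals of the 8 genes on the 18 arrays. The horizontal axis gives the day, the vertical axis the deposited log2 signal, on a separate scale for each gene. Points are single arrays and lines join the group means of wt, Dnmt1-/- and TKO. The lines start close together at day 0 and separate in EBs, where the TKO arrays lie above the wt arrays for all 8 genes at day 4.

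*Dppa2* and *Dppa4*, the SAP domain pair, both fell in wt EBs and kept more of their ESC signal in mutant EBs. *Dppa2* signals were 10.75 and 10.84 in wt ESCs, 6.58 and 6.94 at day 4, and 7.33 and 6.91 at day 16. In *Dnmt1*-/- they were 11.07 and 11.11, then 8.73 and 7.80, then 8.97 and 8.99. In TKO they were 10.95 on both ESC arrays, 9.52 and 10.14 at day 4, and 9.74 and 10.27 at day 16. The EB arrays thus formed separate levels on each day, wt lowest, *Dnmt1*-/- between and TKO highest, without overlap. The change of *Dppa2* by day 16 was -3.68 ± 0.29 in wt (SE, limma adjusted p = 3.15e-06) and -2.11 ± 0.29 in *Dnmt1*-/- (adjusted p = 0.00038). In TKO the difference was not called (-0.95 ± 0.29, adjusted p = 0.088). On the linear scale, the day 16 mean was 7.82% of the ESC mean of the same genotype in wt, 23.2% in *Dnmt1*-/- and 51.9% in TKO.

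*Dppa4* signals were 9.64 and 9.80 in wt ESCs, 6.43 and 5.84 at day 4, and 6.09 and 6.14 at day 16. The *Dnmt1*-/- arrays read 9.86 and 9.83, then 7.94 and 6.75, then 7.99 and 7.47. In TKO they were 10.21 and 9.76, then 8.75 and 9.08, then 9.35 and 9.26. The order of the 3 genotypes in EBs was that of *Dppa2*, again without overlap on either day on the probe set used. On a second probe set of *Dppa4* the day 4 arrays of wt (6.39 and 4.26) and *Dnmt1*-/- (7.39 and 6.28) overlapped. The fall by day 16 was -3.61 ± 0.33 in wt (adjusted p = 8.57e-06) and -2.12 ± 0.33 in *Dnmt1*-/- (adjusted p = 0.00084). In TKO the difference was -0.68 ± 0.33 (adjusted p = 0.33). At day 16 the TKO mean exceeded the *Dnmt1*-/- mean by 1.58 ± 0.33 (adjusted p = 0.032), a call that was lost on leaving out any of the 4 arrays.

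*Dppa3*, the oocyte and germ cell factor, fell in wt and *Dnmt1*-/- EBs, and in TKO its signals at day 16 were above those of ESCs. Its signals were 7.34 and 6.64 in wt ESCs, 4.99 and 5.43 at day 4, and 5.57 and 5.28 at day 16. For *Dnmt1*-/- the signals were 7.26 and 6.80, then 5.49 and 5.34, then 6.10 and 5.95. In TKO they were 6.79 and 6.83, then 5.85 and 6.10, then 7.58 and 7.10. At day 16 both TKO arrays lay above both TKO ESC arrays, and the *Dnmt1*-/- and wt arrays lay below the ESC arrays of their own line. *Dppa3* rose by 1.37 ± 0.25 between day 4 and day 16 in TKO (adjusted p = 0.015), the only gene of the 8 called in that interval in TKO. Without day 4 replicate 1, day 4 replicate 2 or day 16 replicate 1 of TKO this call was lost, at 1.24, 1.49 and 1.13. By a second probe set of *Dppa3* the rise was not called (1.16 ± 0.33, adjusted p = 0.096). On the probe set used, the day 16 mean of *Dppa3* was 144% of the ESC mean in TKO, a difference that was not called (0.53 ± 0.25, adjusted p = 0.32). The corresponding values were 49.8% in *Dnmt1*-/-, whose call was lost without ESC replicate 1 (-0.78), day 16 replicate 1 (-1.08) or day 16 replicate 2 (-0.93), and 33.8% in wt, where the fall of -1.57 ± 0.25 was called (adjusted p = 0.00058).

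*Dppa5a*, the KH domain protein, fell by day 4 in wt and *Dnmt1*-/-, and its signals were higher at day 16 than at day 4, without a call. It gave 12.30 and 12.34 in wt ESCs, 9.11 and 8.30 at day 4, and 10.31 and 9.68 at day 16. The *Dnmt1*-/- signals were 12.69 and 12.67, then 11.17 and 9.66, then 11.90 and 11.41. In TKO it gave 12.64 and 12.61, then 11.74 and 12.51, then 12.84 and 12.66. The day 16 arrays of each genotype lay above its day 4 arrays, and those of TKO lay above its ESC arrays. The day 4 fall was -3.62 ± 0.42 in wt (adjusted p = 0.000202) and -2.27 ± 0.42 in *Dnmt1*-/- (adjusted p = 0.0045), against -0.50 ± 0.42 in TKO (adjusted p = 0.61). The differences between day 16 and day 4, 1.29 ± 0.42 in wt (adjusted p = 0.065), 1.24 ± 0.42 in *Dnmt1*-/- (adjusted p = 0.13) and 0.63 ± 0.42 in TKO (adjusted p = 0.57), were not called. At day 16 *Dppa5a* stood at 19.9% of the ESC mean in wt, 49.0% in *Dnmt1*-/- and 109% in TKO.

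*L1td1*, the LINE-1 derived RNA-binding protein, fell in wt and *Dnmt1*-/- EBs. It gave 10.42 and 10.44 in wt ESCs, 6.79 and 6.96 at day 4, and 6.68 and 6.50 at day 16. Signals in *Dnmt1*-/- were 10.60 and 10.24, then 8.91 and 7.01, then 8.65 and 8.20. In TKO it gave 10.72 and 10.18, then 9.99 and 9.63, then 9.24 and 9.37. The arrays of wt day 16 were the lowest and those of TKO were lower on each later day, while 1 of the *Dnmt1*-/- arrays at day 4 lay near wt and the other near the day 16 arrays of its line. The change by day 16 was -3.84 ± 0.44 in wt (adjusted p = 4.42e-05), -1.99 ± 0.44 in *Dnmt1*-/- (adjusted p = 0.0075) and -1.15 ± 0.44 in TKO (adjusted p = 0.18). In *Dnmt1*-/- the call was lost without ESC replicate 1 (-1.81) or day 16 replicate 2 (-1.77).

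*Fbxo15*, the F-box protein, showed the largest fall of the 8 genes by day 4 in wt and *Dnmt1*-/-, and rose in both between day 4 and day 16. It gave 9.47 and 9.88 in wt ESCs, 4.93 and 3.60 at day 4, and 6.24 and 5.91 at day 16. The arrays of *Dnmt1*-/- read 10.20 and 9.76, then 6.93 and 5.14, then 8.44 and 8.36. In TKO it gave 10.06 and 10.03, then 7.33 and 8.27, then 9.34 and 9.46. Within each genotype the day 4 arrays lay below the day 16 arrays and these below the ESC arrays, without overlap. The change by day 4 was -5.41 ± 0.52 in wt (adjusted p = 4.76e-05), which left 2.35% of the linear ESC signal, -3.95 ± 0.52 in *Dnmt1*-/- (adjusted p = 0.00046) and -2.25 ± 0.52 in TKO (adjusted p = 0.022). The rise from day 4 to day 16 was called in wt (1.81 ± 0.52, adjusted p = 0.035) and in *Dnmt1*-/- (2.37 ± 0.52, adjusted p = 0.019), but not in TKO (1.60 ± 0.52, adjusted p = 0.15). These rises were not shown to differ, with a difference of 0.56 ± 0.73 between *Dnmt1*-/- and wt (adjusted p = 1.00) and of -0.21 ± 0.73 between TKO and wt (adjusted p = 0.95). Both calls were lost without day 4 replicate 2, the lowest array, at 1.14 in wt and 1.47 in *Dnmt1*-/-. They were also lost without day 16 replicate 1 (1.65 and 2.33) or day 16 replicate 2 (1.97 and 2.40).

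*Eras* and *Tcl1*, which act on PI3K and Akt, both fell in wt and *Dnmt1*-/- EBs. *Eras* gave 6.66 and 6.65 in wt ESCs, 5.42 and 5.04 at day 4, and 4.80 and 4.92 at day 16. The *Dnmt1*-/- signals were 7.34 and 6.44, then 5.77 and 5.41, then 5.44 and 5.06. In TKO it gave 7.18 and 6.35, then 6.78 and 6.00, then 5.57 and 5.84. The ESC arrays of both mutants enclosed those of wt, and the TKO arrays of day 0 and day 4 overlapped. By day 16 the change was -1.80 ± 0.34 in wt (adjusted p = 0.0018), -1.64 ± 0.34 in *Dnmt1*-/- (adjusted p = 0.0054) and -1.06 ± 0.34 in TKO (adjusted p = 0.10). Without ESC replicate 1 the *Dnmt1*-/- call was lost (-1.19). *Eras* was the gene of the 8 that was not called between mutants and wt on any day, although its TKO arrays lay above its wt arrays on both EB days. At day 16 the difference from wt was 0.39 ± 0.34 in *Dnmt1*-/- (adjusted p = 0.70) and 0.85 ± 0.34 in TKO (adjusted p = 0.14).

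*Tcl1* gave 8.37 and 8.16 in wt ESCs, 5.04 and 5.37 at day 4, and 5.47 and 5.22 at day 16. Signals in *Dnmt1*-/- were 8.92 and 8.10, then 5.50 and 4.90, then 6.32 and 6.06. In TKO it gave 9.47 and 9.07, then 6.22 and 7.57, then 8.03 and 7.73. At day 4 the *Dnmt1*-/- arrays enclosed those of wt, and by day 16 they lay between wt and TKO. The fall by day 4 was called in each genotype, -3.06 ± 0.38 in wt (adjusted p = 0.00033), -3.31 ± 0.38 in *Dnmt1*-/- (adjusted p = 0.00026) and -2.37 ± 0.38 in TKO (adjusted p = 0.0030). The day 16 mean was 13.2% of the ESC mean of the same genotype in wt, 20.0% in *Dnmt1*-/- and 38.1% in TKO, the lowest share of the 8 genes in both mutants. In TKO ESCs the *Tcl1* mean was 201% of that of wt ESCs, a difference not called. Taken against wt ESCs, its TKO day 16 mean was 76.5%. By that measure *Dppa2* (57.7%), *Dppa4* (75.1%), *L1td1* (45.9%) and *Eras* (51.8%) stood lower in TKO.

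Counted over the 8 genes, day 4 of wt EBs brought 8 falls, with 2.08% of all probe sets called lower. There were also 8 in *Dnmt1*-/-, with 2.05% of probe sets called lower, and in TKO 3, *Dppa2*, *Fbxo15* and *Tcl1*, with 0.898% called lower. The *Dppa2* and *Fbxo15* calls in TKO were lost without either ESC array (-1.12 on both occasions for *Dppa2*, -2.24 and -2.26 for *Fbxo15*) or day 4 replicate 1 (-0.81 and -1.78). Between day 4 and day 16 the count of called rises was 1 in each genotype, *Fbxo15* in wt and *Dnmt1*-/- and *Dppa3* in TKO, against 3.94%, 2.39% and 0.794% of all probe sets. Over the whole interval 8 genes had fallen in wt, with 4.62% of probe sets called lower. Of the 8 genes 6 had fallen in *Dnmt1*-/-, with 2.10% of probe sets called lower. *Dppa5a* (-1.03 ± 0.42, adjusted p = 0.13) and *Fbxo15* (-1.59 ± 0.52, adjusted p = 0.056) were not called there. In TKO 0 had fallen, with 0.631% of probe sets called lower, although 4 of the 8 had an unadjusted limma p below 0.05. With the replicate number as a block the TKO count was higher, as given at the end. The labels do not say that the numbers pair the arrays. The median change by day 16 over the 8 genes was -3.26 in wt, -1.82 in *Dnmt1*-/- and -0.81 in TKO, beside -0.07, -0.10 and -0.01 over all probe sets. On the linear scale the day 16 means were 6.98% to 33.8% of the ESC means in wt, 20.0% to 49.8% in *Dnmt1*-/- and 38.1% to 144% in TKO. By the second probe set of *Dppa4* the share was 3.19% in wt and 18.1% in *Dnmt1*-/-. The wt day 16 means of *Dppa3* (5.42), *Tcl1* (5.35) and *Eras* (4.86) lay below the array medians, 5.77 to 5.90. In wt ESCs *Dppa3* and *Eras* had means of only 6.99 and 6.65. The part of background signal in these shares was not tested.

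**Figure D2:**
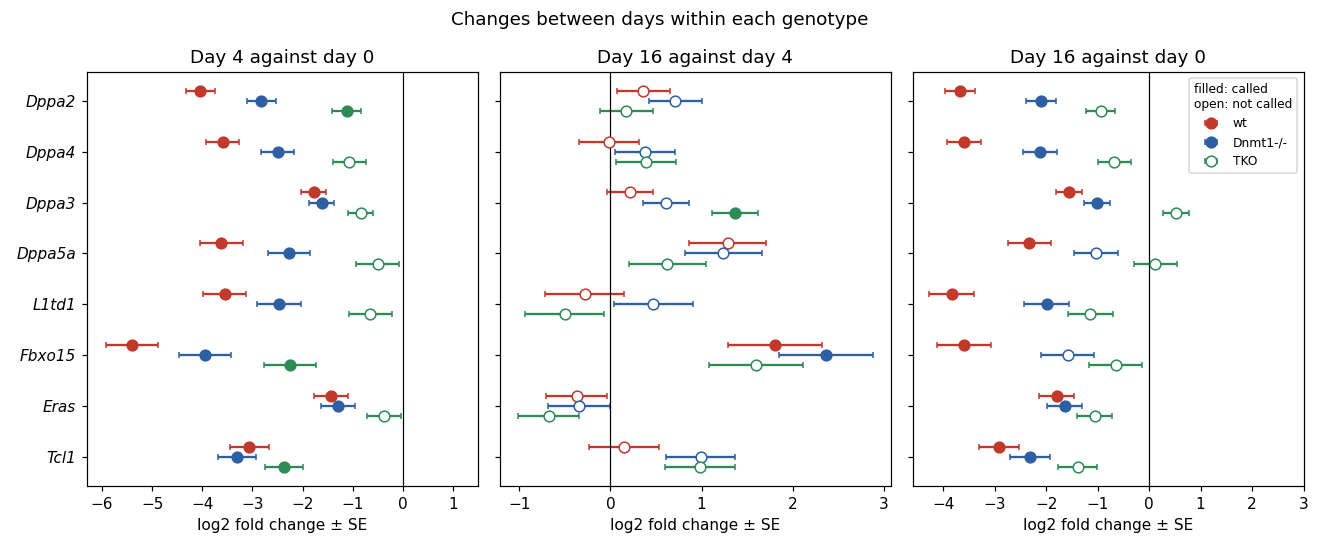
Changes of the 8 genes between days in wt, Dnmt1-/- and TKO. Points are log2 fold changes from the limma fit with bars of 1 SE (2 arrays per group), filled where the change was called. At day 16 against day 0 all 8 wt points are filled, from -3.84 to -1.57, and no TKO point is.

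Ordered by group mean, the highest level of *Dppa2* and *Eras* was in *Dnmt1*-/- ESCs, that of *Dppa4*, *L1td1*, *Tcl1* and *Fbxo15* in TKO ESCs, and that of *Dppa3* and *Dppa5a* in TKO EBs at day 16. The lowest level was in wt EBs for 7 genes and in *Dnmt1*-/- EBs at day 4 for *Tcl1*, whose arrays overlapped there with wt day 4 arrays. Of the 8 steps between neighbouring groups in this order, arrays overlapped in 2 for *Dppa2*, in 3 for *Dppa4*, *L1td1* and *Fbxo15*, in 4 for *Dppa5a* and *Tcl1*, and in 6 for *Dppa3* and *Eras*. For *Dppa2* the overlapping neighbours were TKO EBs of day 16 and day 4, and wt EBs of day 16 and day 4. For *Dppa3* the 4 highest groups, TKO EBs at day 16 and the ESCs of the 3 lines, overlapped from step to step.

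Compared with wt on the same day, 6 of the 8 genes at day 4 and 7 at day 16 were called higher in TKO EBs, and 1 and 5 in *Dnmt1*-/- EBs. In TKO at day 4, 6 were called higher, with 2.11% of all probe sets called higher. They were *Fbxo15* (3.53 ± 0.52, adjusted p = 0.0015), *Dppa5a* (3.42 ± 0.42, adjusted p = 0.00044), *Dppa2* (3.07 ± 0.29, adjusted p = 4.93e-05), *L1td1* (2.93 ± 0.44, adjusted p = 0.0016), *Dppa4* (2.78 ± 0.33, adjusted p = 0.000298) and *Tcl1* (1.69 ± 0.38, adjusted p = 0.021). The *Tcl1* call was lost without either wt array (1.53 and 1.86) or TKO replicate 2 (1.02). *Dppa3* (0.77 ± 0.25, adjusted p = 0.12) and *Eras* (1.16 ± 0.34, adjusted p = 0.076) were not called. In *Dnmt1*-/- at day 4, *Dppa2* was called higher (1.51 ± 0.29, adjusted p = 0.028), 1 gene of the 8 against 0.712% of all probe sets. Of the other genes, 4 had an unadjusted limma p below 0.05, and the spread between the *Dnmt1*-/- arrays of that day reached an SD of 1.34 for *L1td1*, 1.27 for *Fbxo15* and 1.07 for *Dppa5a* (n = 2). For each of these genes replicate 2 gave the lower signal, and its ESC marker sum was the lower of the pair, 1151 against 3379. The part of that difference in the result was not tested. The *Dppa2* call was lost without either wt array of day 4 or without *Dnmt1*-/- replicate 1.

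At day 16, 5 genes were called higher in *Dnmt1*-/- than in wt, with 1.53% of all probe sets called higher. They were *Fbxo15* (2.32 ± 0.52, adjusted p = 0.019), *Dppa2* (1.86 ± 0.29, adjusted p = 0.00195), *L1td1* (1.84 ± 0.44, adjusted p = 0.027), *Dppa5a* (1.66 ± 0.42, adjusted p = 0.0396) and *Dppa4* (1.61 ± 0.33, adjusted p = 0.011). Leaving out an array lowered this count to between 1 and 2, with *Dppa2* called each time. In TKO at day 16, 7 genes were called higher, with 2.40% of all probe sets called higher. The differences were 3.32 ± 0.52 for *Fbxo15* (adjusted p = 0.00094), 3.19 ± 0.33 for *Dppa4* (adjusted p = 3.49e-05) and 2.88 ± 0.29 for *Dppa2* (adjusted p = 2.9e-05). *Dppa5a* differed by 2.75 ± 0.42 (adjusted p = 0.00085), *L1td1* by 2.72 ± 0.44 (adjusted p = 0.0011), *Tcl1* by 2.53 ± 0.38 (adjusted p = 0.00078) and *Dppa3* by 1.92 ± 0.25 (adjusted p = 0.00025). The count stayed at 7 with any of the 4 arrays left out. Both mutants were set against the same 2 wt arrays on each day.

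Array by array on the probe sets used, TKO lay above wt for 8 of 8 genes at day 4, where 18.6% of all probe sets did so. *Dnmt1*-/- lay above wt for 5 genes at day 4, not *Dppa3*, *Eras* and *Tcl1*, and for 8 at day 16, against 10.3% and 19.0% of all probe sets. TKO lay above *Dnmt1*-/- for 8 genes on both days, against 21.5% and 23.8% of probe sets. Of these TKO and *Dnmt1*-/- differences, 2 were called at day 4, with 0.549% of probe sets called higher, in *Dppa4* (1.57 ± 0.33, adjusted p = 0.038) and *Dppa2* (1.56 ± 0.29, adjusted p = 0.023). The *Dppa4* call was lost without *Dnmt1*-/- replicate 2 (0.97) or either TKO array of that day (1.73 and 1.41). That of *Dppa2* was lost without *Dnmt1*-/- replicate 2 (1.10) or TKO replicate 2 (1.26). With the replicate number as a block the day 4 count was higher. At day 16, 3 were called, with 0.130% of probe sets called higher, in *Tcl1* (1.69 ± 0.38, adjusted p = 0.048), *Dppa4* (given above) and *Dppa3* (1.32 ± 0.25, adjusted p = 0.021). None of the 3 calls was kept when any single array of these groups was left out.

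**Figure D3:**
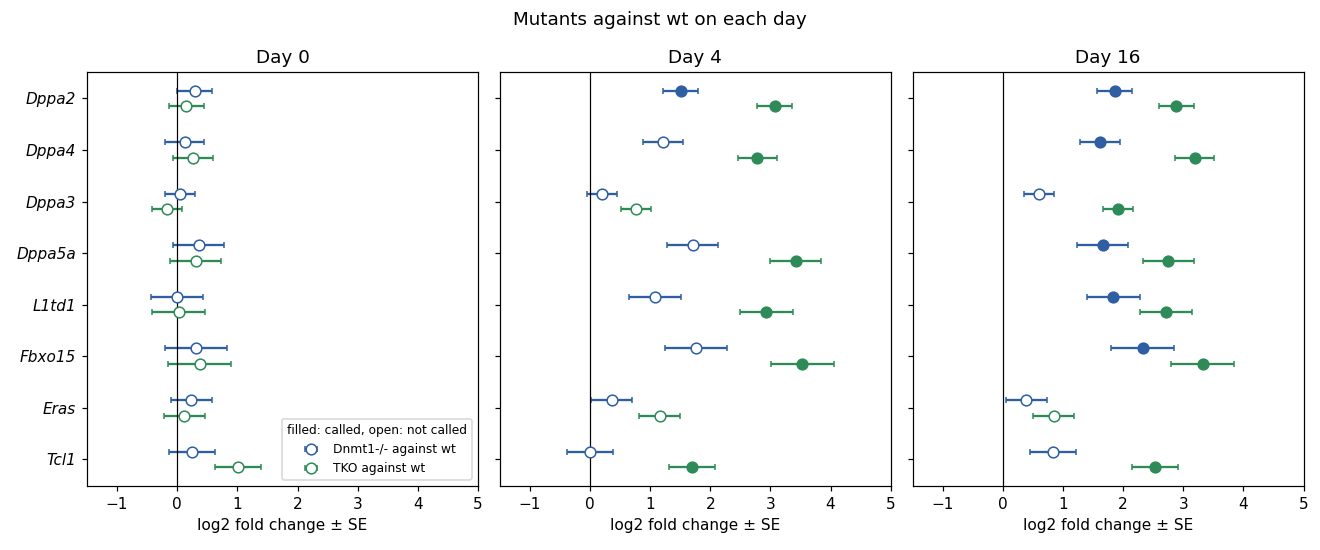
Mutant EBs and ESCs against wt on each day. Points are log2 fold changes of Dnmt1-/- and TKO against wt with bars of 1 SE from the limma fit (2 arrays per group), filled where called. No point is filled at day 0, 1 Dnmt1-/- and 6 TKO points are at day 4, and 5 and 7 are at day 16.

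Whether the change itself differed between genotypes was tested as a difference of changes. From day 0 to day 4, TKO differed from wt in 4 genes, with 1.07% of all probe sets called higher. These were *Dppa5a* (3.11 ± 0.60, adjusted p = 0.024), *Dppa2* (2.92 ± 0.41, adjusted p = 0.0064), *L1td1* (2.91 ± 0.62, adjusted p = 0.037) and *Dppa4* (2.52 ± 0.46, adjusted p = 0.022). From day 0 to day 16 it differed in 6, with 1.69% called higher, *Fbxo15* (2.95 ± 0.73, adjusted p = 0.036), *Dppa4* (2.93 ± 0.46, adjusted p = 0.0032), *Dppa2* (2.73 ± 0.41, adjusted p = 0.0024), *L1td1* (2.70 ± 0.62, adjusted p = 0.025), *Dppa5a* (2.45 ± 0.60, adjusted p = 0.034) and *Dppa3* (2.09 ± 0.36, adjusted p = 0.0047). *Eras* (0.74 ± 0.48, adjusted p = 0.53) and *Tcl1* (1.53 ± 0.54, adjusted p = 0.15) were not among them. The *Dppa2* calls in both intervals and the *Dppa3* and *Dppa4* calls by day 16 held with any array left out. Each of the others was lost on most omissions of a single array. Between day 4 and day 16 no gene of the 8 differed between TKO and wt, with 1 at an unadjusted p below 0.05 and 0.659% of all probe sets called higher. The *Dnmt1*-/- change was not called different from the wt change in any interval. From day 0 to day 4, 3 of the 8 genes had an unadjusted limma p below 0.05 and 0.00% of probe sets were called higher, from day 4 to day 16 these were 0 genes and 0.251%, and from day 0 to day 16 they were 4 genes and 0.617%. The median SE of a difference of changes was 0.29 over all probe sets, and it was 0.36 to 0.73 for the 8 genes.

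*Dppa2*, *Dppa3* and *Dppa4* each had a second probe set, and the probe set of higher mean is the one given above. By its number, the *Dppa2* probe set used lies among probe sets of chromosome 19 genes (5 of its 6 neighbours), and that of *Dppa4* among chromosome 2 genes (6 of 6). The second probe sets of both genes lie among genes of chromosome 16, where *Dppa2* and *Dppa4* map. For *Dppa3* the probe set used lies among chromosome 6 genes, and the second among chromosome X genes. The sources at hand do not say which copies the probes match. The profiles over the 9 groups had r = 0.996 for *Dppa2*, 0.993 for *Dppa4* and 0.988 for *Dppa3* between probe sets read on the same arrays. Calls were equal in 16, 16 and 15 of 18 comparisons between days or genotypes, differences of changes not counted. The largest gap was in *Dppa4*, whose second probe set fell by 4.97 in wt by day 16 (adjusted p = 8.3e-05) and was 4.35 higher in TKO than in wt at day 16 (adjusted p = 0.00044). By that probe set the TKO minus wt change from day 0 to day 4 was not called (3.02 ± 0.87, adjusted p = 0.14). It also did not call TKO against *Dnmt1*-/- at day 4 (1.78, adjusted p = 0.25) or day 16 (1.70, adjusted p = 0.22). By the second probe set of *Dppa2*, the fall in TKO by day 16 was called (-1.19, adjusted p = 0.033), but not *Dnmt1*-/- against wt at day 4 (1.32, adjusted p = 0.067). That of *Dppa3* did not call the TKO rise after day 4 (given above). Nor did it call TKO against *Dnmt1*-/- at day 16 (1.04, adjusted p = 0.16) or the *Dnmt1*-/- fall by day 16 (-1.05, adjusted p = 0.0501). At day 4 the arrays of *Dnmt1*-/- and wt overlapped on the second probe set of *Dppa4*. On that of *Dppa3* the TKO arrays of day 4 overlapped with those of wt and of *Dnmt1*-/-.

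**Figure D4:**
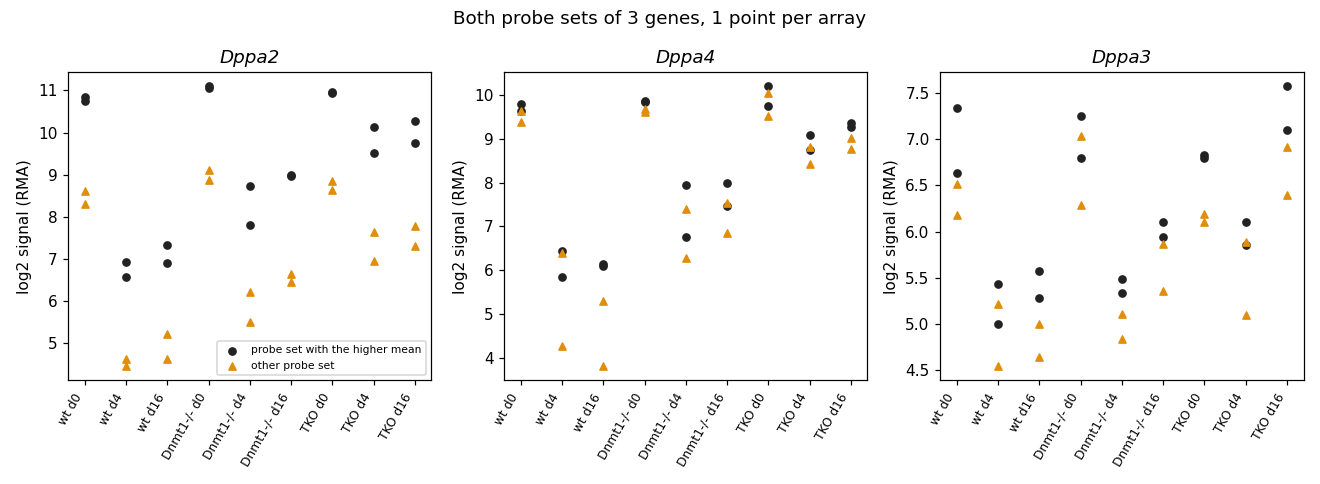
Both probe sets of Dppa2, Dppa4 and Dppa3 in the 9 groups, 1 point per array. The vertical axis gives the deposited log2 signal. The probe sets of a gene move together over the groups, and the second probe set of Dppa4 goes lower in wt EBs than the first.

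The 8 genes shared much of their profile. They were found by symbol but chosen with earlier results of these data known, so this likeness is not independent evidence. Over the 9 group means, the 28 pairs of genes had correlations between 0.70 and 0.99, with a median of 0.92. These points share the same 18 arrays and the common fall from ESCs to EBs. The 3 genes with the profile most like that of *Dppa2* were *Gdf3* (r = 0.996), *Zfp42* and *Zfp640*, and *Gdf3* also stood second for *L1td1*, after *Hook1*. *Dppa4* was most like *Mkrn1-ps1*, *Cbfa2t2* and *Esrrb*, and *Fbxo15* most like *Lncenc1*, *AU018091* and *Tfcp2l1*. For *Dppa3* the most alike were *Phf19*, *Tnip1* and *Dmrt1*, and for *Dppa5a* *Gm6083*, *Nid2* and *Enpp3*. *Tcl1* was most like *Hsd17b14*, *Fgf4* and *Gtsf1l*, and *Eras* most like *Myo10*, *Nrsn1* and *Pir*, each of these leading matches over 9 groups at r between 0.97 and 0.996. With *Pou5f1*, which encodes Oct4, the correlation ranged from 0.73 for *Dppa3* to 0.96 for *L1td1*, and with *Nanog* from 0.87 for *Eras* to 0.99 for *Dppa4*.

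Genes next to the 8 were examined on the chromosome. *Morc1*, beside *Dppa2*, fell by 2.93 in wt by day 16 (adjusted p = 1.49e-05) and was 2.90 higher in TKO than in wt at day 16 (adjusted p = 2.56e-05). The other genes around *Dppa2* and *Dppa4*, *6430553K19Rik*, *Trat1* and *Nectin3*, were not called in either comparison. Beside *Dppa3*, *Gdf3*, a TGF-beta family ligand, fell by 4.08 in wt and was 2.77 higher in TKO (adjusted p = 1.42e-06 and 3.5e-05). *Nanog*, on its other side, fell by 2.74 and was 2.92 higher (adjusted p = 0.00092 and 0.0011), while *Apobec1*, a cytidine deaminase, had a difference of -1.72 between TKO and wt (adjusted p = 0.00024). *Slc2a3*, the gene beyond *Nanog*, was not called in wt by day 16 or in TKO against wt at day 16. On one side of *Dppa5a*, *Ooep* fell by 2.06 in wt and was 1.77 higher in TKO at day 16 (adjusted p = 0.00026 and 0.0015). *Ddx43*, the next gene, fell by 2.02 and was 1.86 higher (adjusted p = 1.33e-05 and 3.95e-05). The nearest genes on its other side, *Omt2b* and *Omt2a*, were not called in these comparisons. Around *L1td1*, *Eras*, *Tcl1* and *Fbxo15* no neighbour was called in wt by day 16 or in TKO against wt at day 16, among them *Tcl1b3* and *Tcl1b4*, relatives of *Tcl1*.

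Lists of genes that act with the 8 were counted in the same fit. Of 25 other ESC-associated transcripts 22 were measured, and 19 had fallen by day 16 in wt, 16 in *Dnmt1*-/- and 4 in TKO. Over all probe sets 4.62%, 2.10% and 0.631% were called lower. At day 16, 21 of the 22 were higher in TKO than in wt and 10 in *Dnmt1*-/-, against 2.40% and 1.53% of all probe sets. The median difference between TKO and wt was 1.98, beside 0.05 over all probe sets. *Dnmt3l*, the cofactor of the *de novo* methyltransferases, showed the greatest difference between TKO and wt in this list (4.47 ± 0.38, adjusted p = 7.05e-06), followed by *Utf1* (3.75 ± 0.31, adjusted p = 5.15e-06). Several of these transcripts were known from earlier results of the same arrays, so the count is not independent evidence.

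Of 18 genes described as bound or kept active by Dppa2 and Dppa4, 11 were measured. Already in ESCs, 1 was called higher in TKO than in wt and 0 in *Dnmt1*-/-, where 0.304% and 0.355% of all probe sets were called. At an unadjusted limma p below 0.05 there were 4 in TKO and 5 in *Dnmt1*-/- ESCs. The median difference between TKO and wt at day 16 was 0.50. On that day 4 were higher in TKO than in wt and 4 in *Dnmt1*-/-, against 2.40% and 1.53% of all probe sets. Among them were *Tuba3b*, a testis tubulin (3.01 ± 0.25, adjusted p = 5.18e-06), and *Mael*, a piRNA pathway gene (2.72 ± 0.39, adjusted p = 0.00046). Of 14 germ line genes found with *Dppa3* in primordial germ cells, 13 were measured. In ESCs, 2 were called higher in TKO and 1 in *Dnmt1*-/- than in wt, where 0.304% and 0.355% of all probe sets were called. At day 16, 7 were higher in TKO than in wt and 3 in *Dnmt1*-/-, against 2.40% and 1.53% of all probe sets. The median difference between TKO and wt was 1.21. *Dazl*, a germ cell RNA-binding protein, led with 4.46 ± 0.31 (adjusted p = 1.64e-06), followed by the helicase *Ddx4* (2.97 ± 0.26, adjusted p = 9.24e-06). *Dazl* also rose within TKO by day 16 (1.71 ± 0.31, adjusted p = 0.0071). Summed over 6 measured germ cell markers, linear signals were 158 to 159 in wt EBs at day 16, 773 to 974 in *Dnmt1*-/- and 1235 to 1555 in TKO, beside 485 to 497, 808 to 830 and 895 to 989 in the ESCs of these lines. Thus the *Dnmt1*-/- EB sums enclosed those of their own ESCs, the wt EB sums lay below and the TKO EB sums above theirs. Within each mutant, 1 of the 6 markers was called higher by day 16, *Dazl*, and 1 lower, *Piwil2*. In TKO the *Piwil2* mean was 8.15 in ESCs and 7.14 at day 16 (limma adjusted p = 0.0041), and the *Dazl* means were 7.93 and 9.63. The part of germ cell transcripts in the *Dppa3* result was not tested.

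A list of 7 genes that maintain or remove DNA methylation was counted because Dppa3 limits methylation. It includes *Dnmt1*, which is itself mutated in TKO. Of the 7, 2 were higher in TKO than in wt at day 16, *Tet1* (2.02 ± 0.23, adjusted p = 9.17e-05) and *Usp7* (1.28 ± 0.11, adjusted p = 7.86e-06). In that comparison 2.40% of all probe sets were called higher. By day 16 *Tet1* had changed by -3.07 in wt and by -1.27 in TKO (adjusted p = 2.35e-06 and 0.0081). Of 7 RNA-binding partners counted with L1td1, *Lin28a* and *Trim71* were higher in both mutants than in wt at day 16. The shares over all probe sets were 2.40% in TKO and 1.53% in *Dnmt1*-/-. *Lin28a*, which blocks let-7 maturation, was 1.81 ± 0.18 above wt in TKO (adjusted p = 3.07e-05). The *Dnmt1*-/- difference from wt was 1.89 ± 0.18 (adjusted p = 4.34e-05).

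Signalling genes around *Eras* and *Tcl1* were counted in the same way. Over all probe sets, 2.40% were called higher in TKO than in wt at day 16, and 4.62% lower by day 16 in wt. The share called lower in TKO than in wt at day 16 was not counted. Of 23 measured PI3K and Akt genes, 1 was higher and 1 lower in TKO than in wt at day 16, with a median of -0.03 and 11 at an unadjusted limma p below 0.05. The called genes were *Inpp5d*, which encodes the phosphatase SHIP1 (1.97 ± 0.22, adjusted p = 7.63e-05), and *Pik3r1*, which encodes a regulatory subunit of PI3K (-1.55 ± 0.19, adjusted p = 0.00014). Of 10 measured Ras family genes 0 were called between TKO and wt at day 16, with 5 at an unadjusted limma p below 0.05. Of 5 measured relatives of *Tcl1* also 0 were called there, with 0 at an unadjusted p below 0.05. Of 9 core genes of the SCF ligase that F-box proteins join, 0 were called in that comparison and 0 by day 16 in wt, with 4 and 5 at an unadjusted p below 0.05.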

How the data were processed

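Total RNA of ESCs and EBs was hybridized to 18 GeneChip Mouse Gene 1.0 ST arrays, 2 per genotype and day. The values deposited by the authors are log2 signals per probe set made with RMA, which corrects background, equalizes the arrays' distributions and yields 1 value for each set of probes. Its version, the probe annotation and the build are not stated. Values were used as deposited, and all 35512 probe sets were tested. The 2 arrays per group limit the precision (median SE of a log2 fold change 0.203). Array medians ran from 5.77 to 5.90. Gene symbols came from the platform's probe gene table, where 21789 probe sets had 1 symbol, 1621 several and 12102 none. A gene was taken from its probe set with the highest mean.

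In R 4.3.3, limma 3.58.1 was used to fit the group means by lmFit, and contrasts were tested by eBayes (9 residual and 3.32 prior degrees of freedom). The 24 comparisons were day differences within a genotype, genotype differences on a day and differences of changes. A gene was called at 2-fold or more if the two-sided p, adjusted by the method of Benjamini and Hochberg within a comparison, was under 0.05. These are the thresholds of the study. The fit was tested on simulated data. Percentages of ESC signal are 2 to the power of the difference of group means. Promoter windows and chromosomes came from RefSeq (GRCm38.p6), where 3 of the 8 genes had a window, and *Dppa2*, *Dppa3*, *Dppa4*, *Dppa5a* and *Fbxo15* had none.

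Named were the 8 genes, the 3 genes of the most similar profile for each, the 2 nearest measured genes on each side, and up to 3 called genes of each list with the largest difference. The genes and lists were chosen with earlier results of these data known. Alternatives were other array scaling, fitting the compared arrays alone, dropping the 30% dimmest probe sets, the replicate number as a block, eBayes with trend and robust variance, a false discovery rate over all comparisons, the mean of a gene's probe sets, no minimum fold change, and each array left out. Use of the other probe set was added after seeing the data.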

Additional observations from a re-analysis of the deposited data

Results flagged for a closer look

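For 10 results the change in TKO differed from the change in wt by the test of the difference itself (limma, 2 arrays per group). From ESCs to day 4 EBs these were *Dppa5a* (3.11 on the log2 scale), *Dppa2* (2.92), *L1td1* (2.91) and *Dppa4* (2.52, but not called by its second probe set, at 3.02 with adjusted p = 0.14). From ESCs to day 16 EBs they were *Fbxo15* (2.95), *Dppa4* (2.93), *Dppa2* (2.73), *L1td1* (2.70), *Dppa5a* (2.45) and *Dppa3* (2.09). In each of them the wt signal fell and the TKO mean was below that of ESCs by less, except for *Dppa5a* and *Dppa3* by day 16, whose TKO means were 0.12 and 0.53 above those of ESCs, neither called. The *Dppa2* differences at both intervals and the *Dppa3* and *Dppa4* differences by day 16 were called with any array left out. The *L1td1* difference at day 4 and the *Fbxo15* difference at day 16 were lost with any of the 8 arrays left out. Those of *Dppa4* at day 4 and *Dppa5a* by day 16 were lost on leaving out 7 of the 8 in turn. For *Dppa5a* at day 4 and *L1td1* by day 16 this held for 6 of the 8.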

How the results depend on the processing

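No log2 fold change of a single gene that was called in the main fit or in an alternative changed sign between them. Sign changes of differences called in neither were not counted. Of 1920 values with all arrays kept, 1861 stayed on their side of the threshold, 29 lost it and 30 gained it. Of 960 with an array left out, 840 stayed, 108 lost it and 12 gained it. Array scaling moved the median of all probe sets by at most 0.06.

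The counts of called genes that moved by more than 1.5 times are as follows. Between day 4 and day 16 in wt the count of 1 became 2 after a further quantile normalization, without the dimmest probe sets and with the replicate block, and 0 in a fit of only the arrays compared and with a false discovery rate over all comparisons. In TKO by day 16 the count of 0 became 1 after quantile normalization, without the dimmest probe sets, with the mean of probe sets and with the other probe set, and 2 with the replicate block. The fit of only the arrays compared gave 5 falls by day 4 in *Dnmt1*-/-. It gave 0 between day 4 and day 16 in *Dnmt1*-/- and TKO, 0 for *Dnmt1*-/- against wt at day 4, and 0 for TKO against *Dnmt1*-/- at day 4 and day 16, with far fewer residual degrees of freedom. TKO against *Dnmt1*-/- at day 4 gave 4 without the dimmest probe sets, 5 with the replicate block and with the rate over all comparisons, and 1 with either choice of probe set. At day 16 it gave 1 with either choice. *Dnmt1*-/- against wt at day 4 gave 2 with the rate over all comparisons and 0 with the other probe set, which also gave 0 for TKO between day 4 and day 16. The rate over all comparisons gave 1 for the *Dnmt1*-/- minus wt change by day 16. For the other moves, the cause was not tested.

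Deviations of same-numbered arrays had correlations of 0.041 to 0.50 (median 0.27), above 0.1 in 32 of 36 pairs of groups but not in all, and the labels do not say that a number marks one of the study's 2 independent experiments, so the numbers were not taken to pair the samples. With the replicate block, no other count moved by more than 1.5 times.

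With an array left out, counts ran from 7 to 7 at day 4 and 8 to 8 at day 16 in wt, 7 to 8 and 3 to 6 in *Dnmt1*-/- (3 without ESC replicate 1), and 1 to 3 and 0 to 0 in TKO. Between day 4 and day 16 they ran from 0 to 1 in wt and TKO and from 0 to 4 in *Dnmt1*-/-. Against wt they were 0 to 5 (day 4) and 1 to 2 (day 16) in *Dnmt1*-/-, and 5 to 6 and 7 to 7 in TKO. TKO against *Dnmt1*-/- gave 0 to 5 and 0 to 0, and day 0 comparisons 0. The TKO minus wt changes gave 1 to 4 (day 4), 0 (day 4 to 16) and 3 to 5 (day 16), and the *Dnmt1*-/- minus wt changes 0. Falls of *Eras* by day 4 were lost without any of the 4 wt arrays, and in *Dnmt1*-/- without ESC replicate 1 (-0.85), day 4 replicate 1 (-1.48) or day 4 replicate 2 (-1.12). By the call rule, differences under 1 on the log2 scale were not called at any precision.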
